A study of Mus musculus with 12 samples.

Results

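RNA polymerase II (Pol II) occupancy was examined at the genes for xenobiotic metabolism enzymes, the enzymes that modify drugs, dietary toxins and many endogenous compounds, in epithelium of the mouse duodenum. The genes were selected by a rule on their symbols, as members of the cytochrome P450 families 1 to 4 (Cyp), the flavin monooxygenases (Fmo), the aldo-keto reductases of family 1 (Akr1), the carboxylesterases (Ces), the UDP-glucuronosyltransferases (Ugt), the glutathione transferases (Gst and Mgst), the sulfotransferases (Sult) and the arylamine N-acetyltransferases (Nat). The authors' deposited tables held 62 such genes among 6429 genes in all. Counting windows were listed for 199 symbols that match the same rule, and the other 137 are not in the deposited comparisons and were not analysed here. The counts below therefore describe genes that passed a filter of the authors that is not given in the sources used here. By family, the tables held 20 of 86 P450 genes, 2 of 7 Fmo, 3 of 16 Akr1, 4 of 20 Ces, 8 of 8 Ugt1a, 3 of 10 Ugt2, 17 of 26 Gst and Mgst, 4 of 21 Sult and 1 of 2 Nat genes.

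Pol II was measured by chromatin immunoprecipitation and sequencing (ChIP-seq) in 3 groups of 3 libraries each, with 1 input library per group. Wild-type (WT) villus and WT crypt came from adult mice given an oil vehicle with ethanol and no tamoxifen, and the third group was villus from mice of the genotype labelled Hnf4αγ DKO. Those mice received tamoxifen at 50 mg/kg per day on 2 days and were taken 1 day after the last injection. The study asked how Pol II binding changes along the crypt-villus axis, and where its recruitment depends on HNF4. HNF4A and HNF4G are paired nuclear receptor-type transcription factors of the gut epithelium. The epithelium was loosened with EDTA for 35 min in WT and 25 min in mutant mice, and villi were kept back by a filter of 70 µm pores while crypts passed through. Genotype, tamoxifen and EDTA time differed together between the WT and DKO groups, so their contributions cannot be told apart. The Cre driver, the deleted exons and the number of animals behind each library are not named in the labels used here.

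Xenobiotic metabolism proceeds in stages. Phase I enzymes, mainly P450s, flavin monooxygenases, reductases and esterases, add or uncover a reactive group. Phase II enzymes then attach glucuronic acid, glutathione, sulfate or an acetyl group, and transporters export the product. In the small intestine these enzymes lie mostly in the enterocytes of the villus and form part of the first pass through which swallowed drugs go.

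Each value in the text is a log2 fold change of normalised Pol II signal with its standard error (SE) after ±, and genes counted as called had an adjusted p-value below 0.05 in the deposited DESeq2 test or in the derived comparison described further on. A positive value in either table means more signal in WT villus. The tables hold no value per library, so whether the libraries of different groups overlap could not be read. Group means were instead rebuilt from each gene's mean signal and its 2 fold changes, assuming groups of equal size. The members' mean signal ran from 38.9 to 1324 normalised counts with a median of 184, against a median of 144 over all genes, and their SEs ran from 0.07 to 0.45. Depth per library was not analysed here, so the SE is the measure of precision. In bulk chromatin, fewer cells of a type and less Pol II per cell cannot be told apart.

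The targeted genes did not lose signal in the libraries labelled DKO. Hnf4a had -0.54 ± 0.14 (adjusted p 4.84e-04) and Hnf4g -1.45 ± 0.22 (adjusted p 7.81e-10) in the authors' deposited table, so both were higher in the villi labelled DKO. The deleted part of either gene is not given in the labels, so this signal may not read the deletion. The group is called labelled-DKO villus throughout, and every direction between genotypes rests on the label. Markers of the labelled cell types were also examined. All 21 tested enterocyte genes of a list of 22 carried more signal in WT villus than the crypt did, and all 5 tested crypt stem or proliferation genes of a list of 20 had more in crypt. No gene of a list of 12 mesenchymal markers, and 5 of 12 immune markers, were in the tables. Of 9 hepatocyte markers Cyp3a11, itself a member, was the 1 gene tested.

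The promoters printed first are those that held a word associated with HNF4 binding, because the study compares tissue with and without HNF4. RefSeq promoters (build GRCm38.p6, 250 bases before to 50 after each transcription start) matched 55 of the 62 members, with 68 promoters in all. Ces1f, Cyp2d22, Cyp2u1, Gsta4, Gstt2, Nat2 and Ugt1a6b were not in the table. The words searched were CAAAGTCCA, CAAAGTTCA and CAAAGGTCA on either strand, and capitals mark the word in the following sequences, read 5′ to 3′ on the gene's strand. The 4 genes with a word were Cyp3a11 (chr5:145879805-145880104, minus strand), Cyp3a25 (chr5:146009568-146009867, minus strand), Cyp2c65 (chr19:39060756-39061055, plus strand) and Sult1b1 (chr5:87536173-87536472, minus strand).
Cyp3a11: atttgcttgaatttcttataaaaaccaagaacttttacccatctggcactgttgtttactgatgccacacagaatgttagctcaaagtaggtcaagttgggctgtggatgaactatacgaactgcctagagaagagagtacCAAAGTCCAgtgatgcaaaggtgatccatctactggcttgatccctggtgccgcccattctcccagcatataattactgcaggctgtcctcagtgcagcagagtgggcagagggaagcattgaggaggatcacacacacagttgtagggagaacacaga
Cyp3a25: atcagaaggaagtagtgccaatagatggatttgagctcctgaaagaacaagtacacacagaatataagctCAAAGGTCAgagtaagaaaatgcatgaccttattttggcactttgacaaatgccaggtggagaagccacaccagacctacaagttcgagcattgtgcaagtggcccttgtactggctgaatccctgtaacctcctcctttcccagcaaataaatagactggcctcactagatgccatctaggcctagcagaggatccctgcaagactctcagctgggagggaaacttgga
Cyp2c65: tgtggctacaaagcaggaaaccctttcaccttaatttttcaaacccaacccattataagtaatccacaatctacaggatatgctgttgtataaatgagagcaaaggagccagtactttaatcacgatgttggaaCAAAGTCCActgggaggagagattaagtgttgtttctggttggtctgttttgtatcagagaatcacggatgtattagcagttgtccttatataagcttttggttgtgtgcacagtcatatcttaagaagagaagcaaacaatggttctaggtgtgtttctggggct
Sult1b1: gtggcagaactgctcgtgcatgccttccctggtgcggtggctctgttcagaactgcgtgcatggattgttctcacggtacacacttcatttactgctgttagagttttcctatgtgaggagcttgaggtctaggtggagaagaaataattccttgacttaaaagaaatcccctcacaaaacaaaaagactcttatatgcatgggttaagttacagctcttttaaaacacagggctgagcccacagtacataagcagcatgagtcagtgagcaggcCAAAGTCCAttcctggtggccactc
The word began 109 bases before the start of Cyp3a11, 180 bases before that of Cyp3a25, 116 bases before that of Cyp2c65, and 25 bases after that of Sult1b1. Cyp3a25 had a further listed start 1 base away, whose promoter holds the same word.

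Words of this kind were found in 4 of 55 members (7.27%), against 1.71% of the 5161 genes of the tables with a promoter and 1.53% of all 27025 genes in the RefSeq table. Counted over promoters, the shares were 7.35% of 68 and 1.43% of 6589. All 4 genes were among the 28 members with a promoter that had more Pol II in WT than in labelled-DKO villus, a share of 14.3%. Among the 1134 genes of the tables that were higher in WT villus, 3.79% held a word. None of the 11 members with more signal in labelled-DKO villus and none of the 16 uncalled members held one. A match of letters describes the window and shows no binding.

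The member promoters were also poor in CpG dinucleotides. The median ratio of observed to expected CpG was 0.214, against 0.748 for promoters of all genes in the tables and 0.384 for all RefSeq promoters, and the median number of CpG in a promoter was 3.50 against 20 and 7. The TATA box letters TATAAA, searched on either strand, were in 19.1% of member promoters, 8.12% of those of the tables and 13.6% of all. They were counted at any position, in members from 234 bases before the start (Cyp3a11) to 40 after it (Gstm5). The shares are thus of letters and do not count TATA boxes in use. The antioxidant response element TGACNNNGC, bound by NRF2, was in 8.82%, 14.7% and 12.4% of these sets, and the dioxin response element TNGCGTG, bound by the aryl hydrocarbon receptor, in 2.94%, 7.77% and 5.07%. The HNF1 palindrome was in none of the 68 member promoters, none of the 6589 of the tables and 0.00913% of all 32851. It is so rare that its absence cannot set the members apart from other genes. Gstk1, which encodes a mitochondrial and peroxisomal glutathione transferase and had the lowest value of all members between WT and labelled-DKO villus, is printed beside these (chr6:42245685-42245984, plus strand), with capitals marking its 13 CpG. Promoters of members higher in labelled-DKO villus had a median of 3 CpG and a ratio of 0.267. Those of members higher in WT villus had 2 CpG and 0.174. The first median leans on the nested Ugt1a genes, as Ugt1a6a, Ugt1a7c, Ugt1a9 and Ugt1a10 had 3, 2, 2 and 1 CpG. Akr1c19, Sult1d1 and Ugt2b35 had 1, 3 and 2. The other glutathione transferases of this direction with a promoter had more, with 16 for Gsto1, 20 and 31 for Gsto2, and 21 for Mgst3.
Gstk1: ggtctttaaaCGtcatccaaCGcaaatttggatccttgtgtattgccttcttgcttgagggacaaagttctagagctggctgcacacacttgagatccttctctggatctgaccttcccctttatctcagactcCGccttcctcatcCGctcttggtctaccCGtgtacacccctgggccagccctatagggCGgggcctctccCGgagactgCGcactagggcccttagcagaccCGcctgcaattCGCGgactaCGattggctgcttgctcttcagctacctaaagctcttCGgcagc

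Between WT villus and WT crypt, most of the members that changed had more Pol II in villus. The authors' deposited table called 25 of 62 members (40.3%), against 37.4% of all 6429 genes, so the share called was near the background. The directions were uneven. More signal in villus was called for 24 members (38.7%, against 18.6% of all genes), and more in crypt for 1 member (1.61%, against 18.8%). A change beyond 1 on the log2 scale was called for 7 members (11.3%, against 4.43% of all genes). The median over members was 0.20, against -0.04 over all genes. By stage, 16 of 29 phase I genes were higher in villus, none was higher in crypt and 13 were not called, whereas 8 of 33 conjugation genes were higher in villus, 1 was higher in crypt and 24 were not called. The 24 include all 8 nested Ugt1a genes, whose windows overlap at 1 locus. Outside that locus 8 of 25 conjugation genes were higher in villus and 1 in crypt. The difference between the stages was not tested.

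Between WT villus and labelled-DKO villus the changes were larger and went both ways. The authors' deposited table called 44 members (71.0%), against 51.9% of all genes. More signal in WT villus was called for 31 members (50.0%, against 22.4%) and more in labelled-DKO villus for 13 (21.0%, against 29.5%). Changes beyond 1 were called for 19 members (30.6%, against 8.69%), and the members' values ran from -1.80 to 3.53 with a median of 0.32, against -0.08 over all genes. After centring on the median of all genes, 31 members remained higher in WT villus and 6 in labelled-DKO villus. With a null that allowed log2 changes of up to 0.5, 19 members were called higher in WT villus and 1, Gstk1, in labelled-DKO villus. The shares of all genes called after centring or with this null were not counted, so these counts stand without a background. The 7 calls that ended after centring were Ugt1a6a, Ugt1a6b, Ugt1a7c, Ugt1a9, Ugt1a10, Ugt2b35 and Sult1d1. Phase I genes were mostly higher in WT villus, with 20 of 29 called in that direction, 1 in the other, and a median of 0.90. Of 33 conjugation genes, 11 were higher in WT villus and 12 in labelled-DKO villus, with a median of -0.04. After centring the counts were 11 and 5 and the median was 0.04. Of the 12, 5 were nested Ugt1a genes, whose windows overlap. Outside that locus 11 of 25 conjugation genes were higher in WT villus and 7 in labelled-DKO villus. Both medians count the 8 Ugt1a genes, so they lean on 1 locus.

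The enterocyte markers were all higher in WT villus in both tables, whereas the members were so in part. Against crypt 24 of 62 members were called higher in WT villus and 1 lower, beside 18.6% and 18.8% of all genes. Against labelled-DKO villus 31 were called higher and 13 lower, beside 22.4% and 29.5% of all genes. The 21 tested enterocyte genes had values from 0.93 to 2.28 (median 1.45) for villus over crypt and from 0.49 to 3.87 (median 1.91) for WT over labelled-DKO villus, and all were called in both. Their summed rebuilt signal was 25873 in WT villus, 9708 in WT crypt and 7668 in labelled-DKO villus. In the same groups the summed signal of the 5 crypt genes was 440.0, 695 and 599. That of 9 secretory markers was 3239.8, 2119 and 3575, and that of 5 immune markers 544, 422 and 426. Such sums lean on few genes. Fcgbp alone had 1692, 893 and 1778 of the secretory sum. By call, 4 secretory markers were higher in villus and 2 in crypt, and 3 were higher in labelled-DKO villus than in WT villus. Of the immune markers Cd74 alone was called in either deposited table. The part of the enterocyte signal in the members' changes was not tested.

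**Figure D1:**
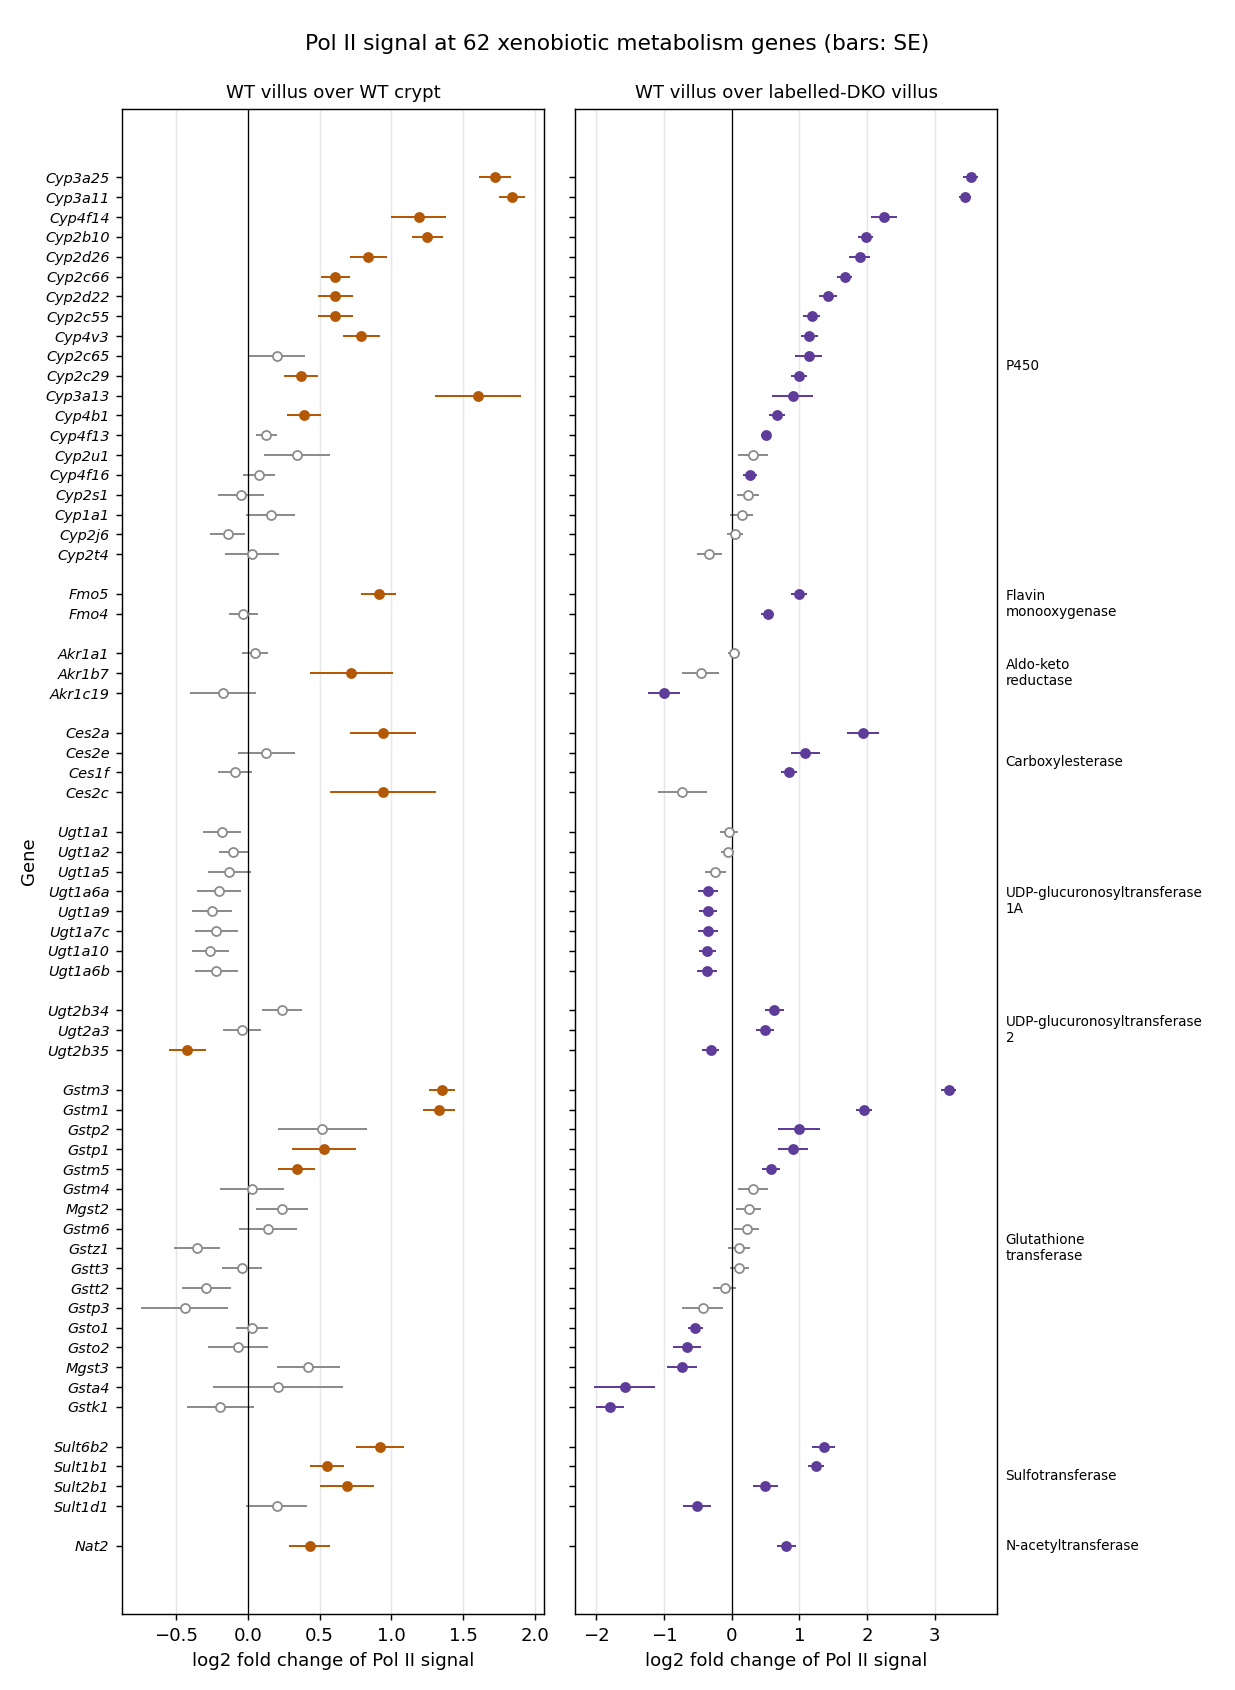
Log2 fold change of Pol II signal (x axis) for each of the 62 genes (y axis, grouped by family) in WT villus over WT crypt (left) and WT villus over labelled-DKO villus (right). Bars are SE, filled points have an adjusted p under 0.05 and open grey points do not; P450 genes lie mostly to the right of 0 and reach 3.53, whereas glutathione transferases run from -1.80 to 3.21.

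The P450s, heme enzymes that oxidise drugs, steroids and fatty acids, formed the family with the most measured genes. As called in the authors' deposited tables, 12 of 20 were higher in villus and none in crypt, beside 18.6% and 18.8% of all genes. More signal in WT villus was called for 15 of 20 and more in labelled-DKO villus for none, beside 22.4% and 29.5% of all genes. The family medians were 0.50 and 1.07.

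The Cyp3a genes encode the main drug-oxidising P450s of the gut. Cyp3a11 (chr5:146665183-146691430, mm9) had a rebuilt signal of 1218 in WT villus, 339 in WT crypt and 112 in labelled-DKO villus. WT villus was thus highest and labelled-DKO villus lowest, below the crypt. The authors' deposited tables gave 1.84 ± 0.09 (adjusted p 1.19e-97) for villus over crypt and 3.45 ± 0.09 (adjusted p 1.48e-302), a 10.9-fold difference, for WT over labelled-DKO villus. Its neighbour Cyp3a25 (chr5:146787770-146821194) followed the same order, with 1609, 487 and 139. The authors' deposited tables gave Cyp3a25 1.72 ± 0.11 (adjusted p 2.22e-55) and 3.53 ± 0.11 (adjusted p 1.08e-219), an 11.6-fold difference and the largest among the members. Cyp3a13 (chr5:138333161-138362847), which lies apart from them on the same chromosome, had a rebuilt 1650.0 in WT villus, 545 in crypt and 885 in labelled-DKO villus. Its level in labelled-DKO villus thus lay between the WT groups. In the authors' deposited tables Cyp3a13 had 1.60 ± 0.30 (adjusted p 1.36e-06) and 0.90 ± 0.30 (adjusted p 0.00704), a 1.86-fold difference.

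Among family 2, Cyp2b10 (chr7:26682677-26711643), a classic target of the constitutive androstane receptor, had 496 in WT villus, 208 in crypt and 126 in labelled-DKO villus. The authors' deposited tables gave Cyp2b10 1.25 ± 0.11 (adjusted p 2.60e-26) and 1.98 ± 0.11 (adjusted p 9.14e-65). The Cyp2c genes, enzymes of drug and fatty acid oxidation, form a cluster on chromosome 19. All 4 measured genes of it were higher in WT villus than in labelled-DKO villus, beside 22.4% of all genes. Cyp2c66 (chr19:39188388-39261246) had 470.0, 309 and 148 in WT villus, crypt and labelled-DKO villus, with 0.61 ± 0.10 (adjusted p 6.58e-08) and 1.67 ± 0.11 (adjusted p 1.09e-54) in the authors' deposited tables. Cyp2c55, Cyp2c65 and Cyp2c29 had 1.18, 1.14 and 1.00 for WT over labelled-DKO villus there. Cyp2c65, whose promoter holds an HNF4 word, was not called along the crypt-villus axis (0.20 ± 0.20, adjusted p 0.458 in the authors' deposited table). The 2 Cyp2d genes, drug-oxidising P450s on chromosome 15, were called in both tables. Cyp2d26 (chr15:82619537-82624675) had 0.84 ± 0.13 and 1.89 ± 0.15 (adjusted p 3.56e-36), and Cyp2d22 (chr15:82199957-82210690) had 0.61 ± 0.12 and 1.42 ± 0.13 (adjusted p 2.85e-26) in the authors' deposited tables.

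The Cyp4 genes, many of them fatty acid omega-hydroxylases, were all 5 higher in WT villus than in labelled-DKO villus, beside 22.4% of all genes. They ran from 0.27 for Cyp4f16 to 2.25 for Cyp4f14 in the authors' deposited table. Cyp4f14 (chr17:33041015-33054301) had a rebuilt 413 in WT villus, 181 in crypt and 86.7 in labelled-DKO villus. The authors' deposited tables gave Cyp4f14 1.19 ± 0.19 (adjusted p 2.93e-09) and 2.25 ± 0.19 (adjusted p 2.33e-31). Cyp4v3 had 0.79 ± 0.13 and 1.15 ± 0.13, Cyp4b1 0.39 ± 0.12 and 0.67 ± 0.12, and Cyp4f13 was called for genotype alone, at 0.51 ± 0.07, in the same tables. The 5 P450s called in neither table were Cyp1a1, Cyp2j6, Cyp2s1, Cyp2t4 and Cyp2u1. Cyp1a1, the standard target of the aryl hydrocarbon receptor, had the lowest mean signal of all members, at 38.9, and the authors' deposited tables gave it 0.16 ± 0.17 and 0.15 ± 0.17. These 5 genes had values from -0.33 to 0.34, and a p that misses the threshold does not show that they were equal between groups.

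The other phase I families held fewer genes. Fmo5 (chr3:97432727-97459210), a Baeyer-Villiger type flavin monooxygenase, had a rebuilt 521 in WT villus, 278 in crypt and 263 in labelled-DKO villus. The authors' deposited tables gave Fmo5 0.91 ± 0.12 (adjusted p 1.82e-13) and 0.99 ± 0.12 (adjusted p 1.78e-16). Fmo4 was called for genotype alone, at 0.53 ± 0.10 (adjusted p 8.41e-07) in the authors' deposited table. The 3 aldo-keto reductases, which reduce aldehydes and ketones, included no gene called higher in WT villus than in labelled-DKO villus, beside 22.4% of all genes. Akr1c19 (chr13:4232986-4247605) had 101 in WT villus, 113 in crypt and 202 in labelled-DKO villus, so that the last was the highest. The authors' deposited table gave Akr1c19 -1.0 ± 0.23 (adjusted p 5.05e-05) for WT over labelled-DKO villus. Akr1b7 (chr6:34362362-34373137) rose from crypt to villus, with 0.72 ± 0.29 (adjusted p 0.0354), and had -0.46 ± 0.28 (adjusted p 0.162) for genotype in the authors' deposited tables. Akr1a1, a broadly expressed aldehyde reductase, had 0.05 ± 0.09 and 0.04 ± 0.09 there.

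The carboxylesterases hydrolyse ester and amide drugs, and those of family 2 are the intestinal form. Ces2a (chr8:107257903-107265534) had a rebuilt 161 in WT villus, 84.3 in crypt and 42.0 in labelled-DKO villus. The authors' deposited tables gave Ces2a 0.94 ± 0.23 (adjusted p 2.81e-04) and 1.94 ± 0.23 (adjusted p 1.99e-15). Ces2c (chr8:107370968-107378382), which lies between Ces2a and Ces2e, had 111, 57.9 and 184 in the same groups, with its highest level in labelled-DKO villus. In the authors' deposited tables Ces2c had the same 0.94, with an SE of 0.37 (adjusted p 0.0322), for villus over crypt, and -0.73 ± 0.36 (adjusted p 0.0789) for genotype. Ces2e (chr8:107450160-107458572) had 1.09 ± 0.21 (adjusted p 9.14e-07) and Ces1f (chr8:95779135-95803635) 0.85 ± 0.12 (adjusted p 6.47e-11) for WT over labelled-DKO villus, and neither was called along the crypt-villus axis in the authors' deposited tables. The Ces2 genes are close copies of each other, and reads that map equally well to several were removed by the mapping quality limit.

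**Figure D2:**
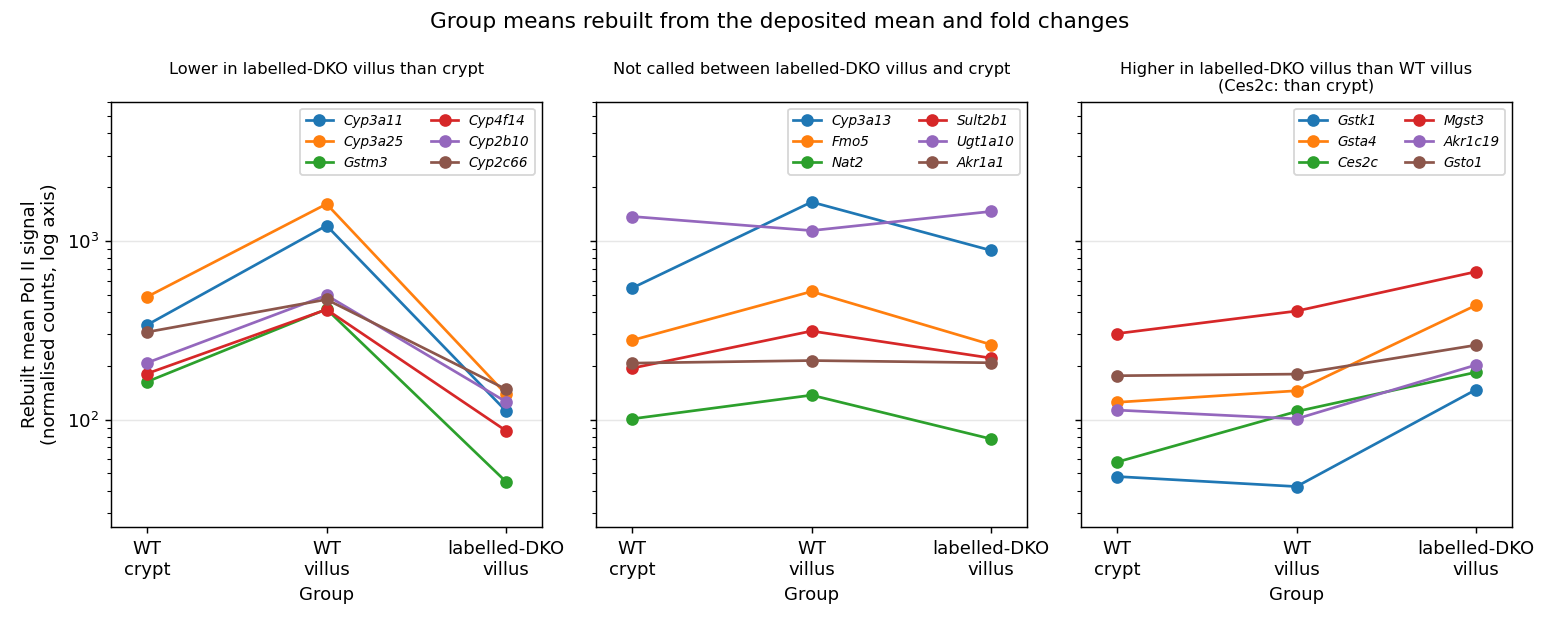
Rebuilt mean Pol II signal (y axis, normalised counts on a log axis) in WT crypt, WT villus and labelled-DKO villus (x axis) for 18 members chosen after their values were seen. The means carry no error bars because no library values were used; Cyp3a11 goes from 339 to 1218 and then to 112 along the axis, whereas Gstk1 goes from 48.0 to 42.2 and then to 147.

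Glucuronidation, the transfer of glucuronic acid from a UDP carrier, showed small differences in Pol II. The 8 Ugt1a genes share their last exons on chromosome 1 (chr1:89951986-90116577), each with its own first exon, so their windows overlap and the 8 values are not independent. None was called between villus and crypt, beside 37.4% of all genes, with values from -0.26 to -0.10 in the authors' deposited table. Between genotypes 5 were called with more signal in labelled-DKO villus, beside 29.5% of all genes, and 3 were not called. The values for WT over labelled-DKO villus ran from -0.36 to -0.04 in the authors' deposited table. The 5 called genes start farthest from the shared end. Ugt1a10, the longest at 164592 bp, had a rebuilt 1142 in WT villus, 1369 in crypt and 1461 in labelled-DKO villus, with -0.36 ± 0.13 (adjusted p 0.0151) in the authors' deposited table. Ugt1a6a, Ugt1a6b, Ugt1a7c and Ugt1a9 lay between -0.36 and -0.35 there, with adjusted p from 0.0203 to 0.0417, and none of these calls held after centring. Ugt1a1, the bilirubin-conjugating enzyme and the shortest at 8044 bp, had 423, 479 and 435, and -0.04 ± 0.13 (adjusted p 0.819) in the authors' deposited table. Its mean signal of 446 was 33.7% of that of Ugt1a10 in 4.89% of its length. The Ugt1a1 span lies within that of Ugt1a10, so Pol II on the longer transcript can be counted in it. The values of Ugt1a1 therefore do not read that gene alone.

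**Figure D3:**
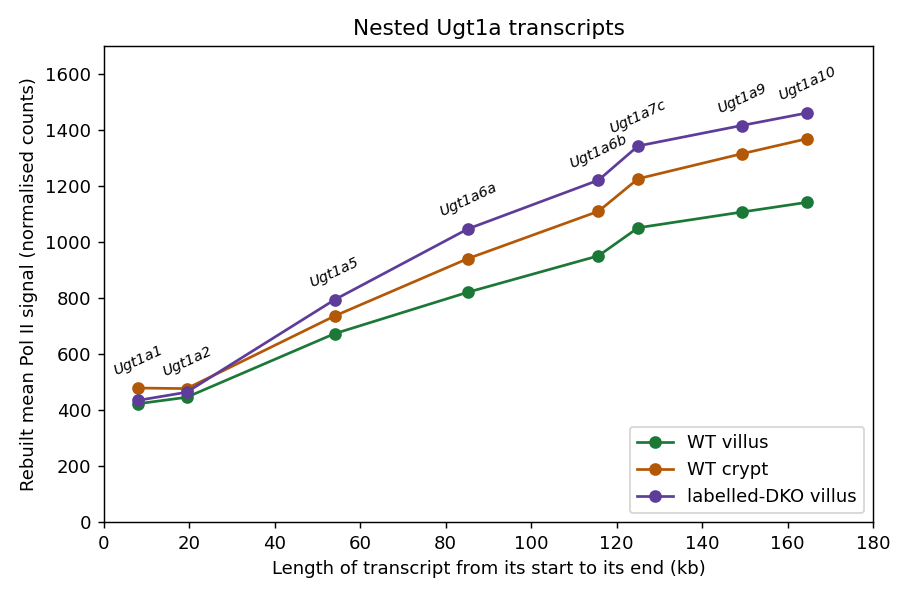
Rebuilt mean Pol II signal (y axis, normalised counts) of the 8 nested Ugt1a transcripts against their length (x axis, kb) in WT villus, WT crypt and labelled-DKO villus. The transcripts overlap and share their end or nearly so; the group means of Ugt1a1 lie between 423 and 479 and those of Ugt1a10 between 1142 and 1461.

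The Ugt2 genes lie on chromosome 5 and went in both directions. Ugt2b34 and Ugt2a3 were higher in WT villus than in labelled-DKO villus, at 0.63 ± 0.14 (adjusted p 6.43e-05) and 0.49 ± 0.13 (adjusted p 5.04e-04) in the authors' deposited table. Ugt2b35 (chr5:87429885-87442299), which lies between them, was the 1 member called higher in crypt. It had a rebuilt 90.2 in WT villus, 121 in crypt and 112 in labelled-DKO villus, so WT villus was the lowest group. The authors' deposited tables gave Ugt2b35 -0.42 ± 0.13 (adjusted p 0.00380) and -0.31 ± 0.13 (adjusted p 0.0272). The second of these calls ended after centring.

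Glutathione transferases, which couple electrophiles to glutathione, were called in both directions between genotypes. Of the 17 genes in the authors' deposited tables, 4 were higher in villus and none in crypt, beside 18.6% and 18.8% of all genes. Between genotypes 5 were higher in WT villus and 5 in labelled-DKO villus, beside 22.4% and 29.5% of all genes. Whether the family differed from all genes was not tested. The 5 with more signal in WT villus were Gstm1, Gstm3 and Gstm5 of the mu class, on chromosome 3, and Gstp1 and Gstp2 of the pi class, on chromosome 19. Gstm3 (chr3:107765614-107772092) had a rebuilt 415 in WT villus, 163 in crypt and 45.0 in labelled-DKO villus, the last being the lowest. The authors' deposited tables gave Gstm3 1.35 ± 0.09 (adjusted p 9.51e-51) and 3.21 ± 0.11 (adjusted p 8.93e-197), a 9.22-fold difference between genotypes. Gstm1 (chr3:107814168-107820891) had 268, 107 and 68.8 in the same groups, with 1.33 ± 0.11 (adjusted p 1.67e-29) and 1.96 ± 0.12 (adjusted p 1.45e-61) in the authors' deposited tables. Gstm5, whose window overlaps another gene, had 0.34 ± 0.13 and 0.58 ± 0.13, both called, whereas Gstm4 and Gstm6 were called in neither table. The pi class genes Gstp1 and Gstp2, near-identical neighbours whose reads are hard to assign, had 0.91 ± 0.22 (adjusted p 1.11e-04) and 0.99 ± 0.31 (adjusted p 0.00450) for WT over labelled-DKO villus. Gstp3 beside them had -0.43 ± 0.30 (adjusted p 0.225) in the authors' deposited table.

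More Pol II in labelled-DKO villus was called for 5 glutathione transferases of other classes. Gstk1 (chr6:42195934-42200440) had a rebuilt 42.2 in WT villus, 48.0 in crypt and 147 in labelled-DKO villus, so labelled-DKO villus stood above both WT groups. The authors' deposited tables gave Gstk1 -0.19 ± 0.23 (adjusted p 0.562) and -1.80 ± 0.21 (adjusted p 8.67e-16), a 3.49-fold difference between genotypes. Gsta4 (chr9:78039773-78057156), an alpha class enzyme that clears the lipid peroxidation product hydroxynonenal, had 145, 125 and 436, also highest in labelled-DKO villus. Its SE was the largest among the members, and the authors' deposited tables gave 0.21 ± 0.45 (adjusted p 0.749) and -1.58 ± 0.45 (adjusted p 0.00121). Mgst3 (chr1:169301098-169323972), a membrane-bound microsomal enzyme, had 405, 303 and 672, with -0.73 ± 0.22 (adjusted p 0.00256) for genotype in the authors' deposited table. The omega class neighbours Gsto1 and Gsto2 on chromosome 19 had -0.54 ± 0.11 (adjusted p 3.48e-06) and -0.66 ± 0.21 (adjusted p 0.00411) there. When the null allowed log2 changes of up to 0.5, Gstk1 was still called, and Gsta4, Mgst3, Gsto1 and Gsto2 were not. Gstm4, Gstm6, Gstp3, Gstt2, Gstt3, Gstz1 and Mgst2 were called in neither table.

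Sulfotransferases add sulfate to steroids, phenols and other acceptors. Of the 4 measured genes 3 were higher in villus than in crypt, beside 18.6% of all genes. Sult6b2 (chr6:142733301-142752986) had a rebuilt 256 in WT villus, 136 in crypt and 100.2 in labelled-DKO villus, with 0.92 ± 0.17 (adjusted p 8.58e-07) and 1.36 ± 0.17 (adjusted p 2.38e-14) in the authors' deposited tables. Sult1b1 (chr5:87941364-87967220), whose HNF4 word lies just after the start, had 267, 182 and 112, with 0.55 ± 0.12 (adjusted p 2.58e-05) and 1.25 ± 0.12 (adjusted p 6.86e-24) there. Its neighbour Sult1d1 (chr5:87982675-87998031) had 161, 141 and 230.4, with the highest level in labelled-DKO villus. The authors' deposited table gave Sult1d1 -0.51 ± 0.21 (adjusted p 0.0301) for genotype, a call that ended after centring. Sult2b1, a cholesterol sulfotransferase, had 0.69 ± 0.19 and 0.50 ± 0.19, both called. Nat2 (chr8:70018774-70026477), the 1 measured arylamine N-acetyltransferase, had a rebuilt 137, 101 and 78.0 in WT villus, crypt and labelled-DKO villus. The authors' deposited tables gave Nat2 0.43 ± 0.14 (adjusted p 0.00640) and 0.81 ± 0.14 (adjusted p 3.08e-08).

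Many members lie beside others on a chromosome. Joined across gaps under 1 Mb, 43 of the 62 genes fell into 13 clusters. Cyp3a11 and Cyp3a25 had 3.45 and 3.53 for WT over labelled-DKO villus in the authors' deposited table. The 4 Cyp2c genes lay between 1.00 and 1.67, and Gsto1 and Gsto2 at -0.54 and -0.66. The 5 Gstm genes spread from 0.22 to 3.21 within chr3:107698772-107847777, and the 3 Cyp4f genes from 0.27 to 2.25. In the Ces2 cluster values ran from -0.73 to 1.94, and in the joint Ugt2 and Sult1 stretch from -0.51 to 1.25. Differences between neighbours were not tested, because they share libraries.

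**Figure D4:**
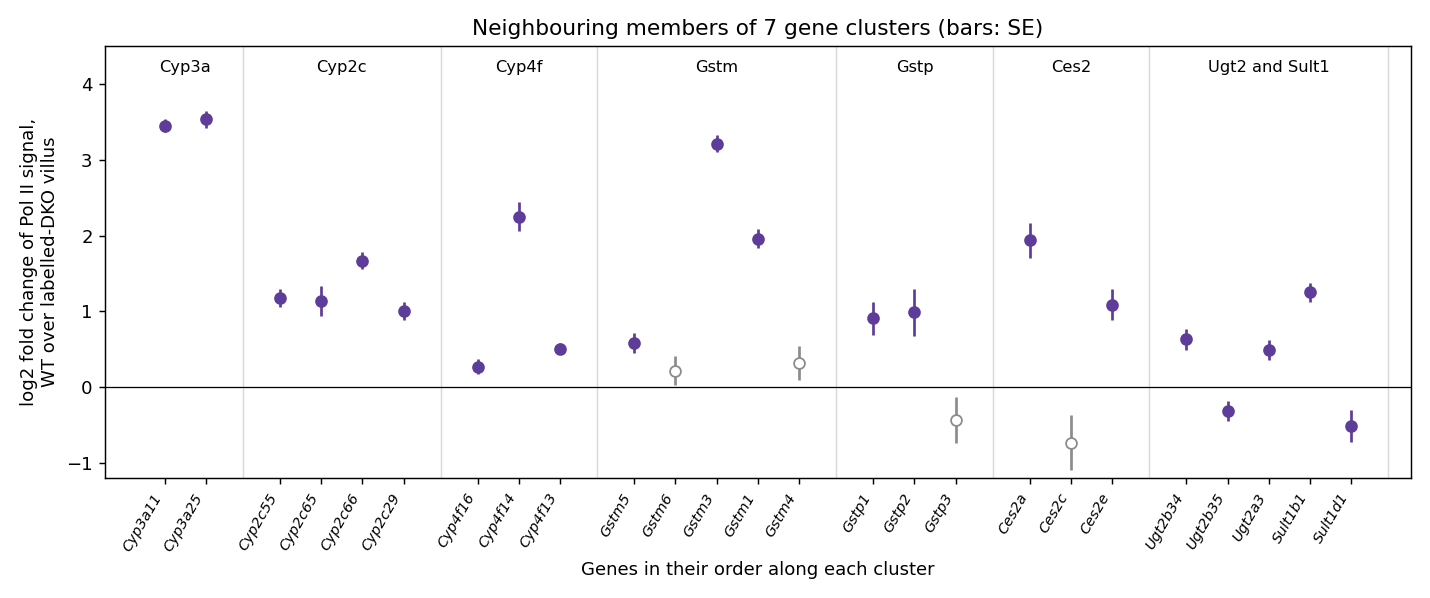
Log2 fold change of Pol II signal, WT villus against labelled-DKO villus (y axis), for members in their order along 7 gene clusters (x axis). Bars are SE, and filled points have an adjusted p under 0.05; the Cyp3a pair lies at 3.45 and 3.53, the Gstm genes run from 0.22 to 3.21, and Ces2c at -0.73 lies between Ces2a at 1.94 and Ces2e at 1.09.

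Labelled-DKO villus was then set against WT crypt, as the difference of the 2 deposited fold changes. This asks where a gene in the mutant villus stood relative to the WT crypt. Its SE was taken as the largest it can be for independent libraries, and p-values were adjusted over all 6429 genes. Both deposited comparisons use the WT villus libraries, so the 3 comparisons are not independent. This test called 25 members (40.3%), against 13.6% of all genes. Less signal in labelled-DKO villus than in crypt was called for 19 (30.6%, against 7.19%) and more for 6 (9.68%, against 6.41%), and 12 changed beyond 1 (19.4%, against 3.47%). The median was -0.19, against 0.00 over all genes. Of the 21 enterocyte markers 6 were lower and 1 was higher, with a median of -0.62, and their part in these changes was not tested.

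Of the 20 measured P450s 11 were called below the crypt level, beside 7.19% of all genes. They made up 11 of the 19 members so called. Gstm3 (-1.86 ± 0.14, adjusted p 8.11e-39), Cyp3a25 (-1.81 ± 0.15, adjusted p 4.13e-29) and Cyp3a11 (-1.61 ± 0.13, adjusted p 3.69e-34) changed most. They had 3.63-fold, 3.50-fold and 3.04-fold less signal than the crypt. Cyp2c66 and Cyp4f14 each had -1.06, Cyp2d26 had -1.05, Ces2a -1.0, Ces2e -0.96, Ces1f -0.94, Cyp2c65 -0.94, Cyp2d22 -0.81 and Cyp2b10 -0.73, and all of these were called. Cyp3a13 was not called, at 0.70 ± 0.43 (adjusted p 0.319).

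The 6 members above the crypt level came from the reductase, esterase and glutathione transferase families. Gsta4 had 1.80 ± 0.63 (adjusted p 0.0363), Ces2c 1.67 ± 0.52 (adjusted p 0.0137), Gstk1 1.61 ± 0.32 (adjusted p 1.21e-05), Akr1b7 1.19 ± 0.41 (adjusted p 0.0301), Mgst3 1.15 ± 0.31 (adjusted p 0.00342) and Gsto1 0.57 ± 0.16 (adjusted p 0.00399). Ces2c and Akr1b7 were also higher in WT villus than in crypt, and the other 4 were not called there. Akr1c19, at 0.83 ± 0.32 (adjusted p 0.0677), was not called. When the null allowed log2 changes of up to 0.5, this comparison called 5 members in place of 25. The share of all genes called with that null was not counted.

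The partners that supply electrons or cofactors were measured for 11 of 14 listed genes. As called in the authors' deposited tables, 8 were higher in villus and 2 in crypt, beside 18.6% and 18.8% of all genes. Between genotypes 7 were higher in WT villus and 4 in labelled-DKO villus, beside 22.4% and 29.5% of all genes. Cyb5r3 and Cyb5a, the cytochrome b5 reductase and cytochrome b5 that pass electrons to P450s, had 1.67 ± 0.11 and 1.11 ± 0.09 for genotype in the authors' deposited table. Papss2, which makes the sulfate donor, had 1.62 ± 0.17. Por, the reductase on which microsomal P450s depend, went the other way, at -0.42 ± 0.19 (adjusted p 0.0441), and had 0.56 ± 0.19 for villus over crypt. Its rebuilt signal was 606 in WT villus, 412 in crypt and 812 in labelled-DKO villus, which placed labelled-DKO villus 0.98 ± 0.26 above crypt. Gsr, which regenerates glutathione, and Ugp2, which makes UDP-glucose, had -0.80 ± 0.27 and -0.47 ± 0.11 for genotype in the authors' deposited table.

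Transporters were measured for 10 of 20 listed genes. By the authors' deposited tables, 2 were higher in villus and none in crypt, beside 18.6% and 18.8% of all genes. Between genotypes 7 were higher in WT villus and 2 in labelled-DKO villus, beside 22.4% and 29.5% of all genes. Abcc2, an apical pump for glutathione and glucuronide conjugates, had a rebuilt 2697 in WT villus, 845 in crypt and 388 in labelled-DKO villus. The authors' deposited tables gave Abcc2 1.67 ± 0.27 (adjusted p 1.70e-08) and 2.80 ± 0.27 (adjusted p 4.20e-23). Slc15a1, the peptide and peptide-like drug carrier that is also on the enterocyte list, had 1.83 ± 0.19 and 1.53 ± 0.18 there. The cation extrusion carrier gene Slc47a1 had 0.33 ± 0.14 (adjusted p 0.0537) and 0.65 ± 0.14 (adjusted p 2.50e-05) in the authors' deposited tables. Abcb1a, the drug efflux pump P-glycoprotein, had 0.41 ± 0.12 (adjusted p 0.00140) for genotype. The carnitine carrier gene Slc22a5 had -0.68 ± 0.10 (adjusted p 3.86e-10) and the prostaglandin carrier gene Slco2a1 -0.63 ± 0.24 (adjusted p 0.0205), both higher in labelled-DKO villus in the authors' deposited table.

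Of 31 listed regulators 24 were measured. The authors' deposited tables had 7 genes higher in villus and 2 in crypt, beside 18.6% and 18.8% of all genes. Between genotypes 12 were higher in WT villus and 6, among them the targeted Hnf4a and Hnf4g, in labelled-DKO villus, beside 22.4% and 29.5% of all genes. The xenobiotic receptor genes Nr1i2 (PXR) and Nr1i3 (CAR) had 1.09 ± 0.15 (adjusted p 1.41e-11) and 0.54 ± 0.13 (adjusted p 9.36e-05) for WT over labelled-DKO villus, and their partner Rxra had 0.85 ± 0.12 (adjusted p 4.73e-11), in the authors' deposited table. Nr2f6 and Cebpa had 0.97 ± 0.18 and 0.90 ± 0.24. Nfe2l2, which encodes the oxidative stress regulator NRF2, had 0.65 ± 0.13. Ahr, the dioxin receptor gene, had a rebuilt 220.4 in WT villus, 246 in crypt and 414 in labelled-DKO villus, with -0.91 ± 0.10 (adjusted p 1.32e-17) for genotype in the authors' deposited table. Foxa1, Ppara and Nr1h4, which encode a pioneer factor, a fatty acid receptor and the bile acid receptor FXR, had -0.88 ± 0.13, -0.85 ± 0.10 and -0.77 ± 0.11 there.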

How the data were processed

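Pol II ChIP-seq reads were processed by the authors with FastQC 0.11.3, Bowtie2 2.2.6, SAMtools 0.1.19, Picard, deepTools 2.4.2, featureCounts of Subread 2.03 and DESeq2 1.36.0 on build mm9, per the submitters' processing notes. Per the file headers, featureCounts 2.0.3 counted pairs of reads (mapping quality 30 or more) in windows at promoters and gene bodies, ignored duplicates, gave a pair to every window it overlapped and recorded no strand option. The 2 count tables have no line naming their columns, so 18 columns of per-library counts were matched to no sample and used in no step. The planned edgeR tests and fits with a replicate block were therefore not run, and library depth was not analysed here. The windows gave the members' mm9 positions.

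All results rest on the authors' 2 comparison tables, which have the DESeq2 results format per the file headers. For each gene the authors deposited a mean signal (counts over size factors), a log2 fold change with its SE, a Wald score and a p-value with its adjusted form. The gene filter, size factors, design and window counted are not given in the sources used here, nor is whether fold changes were shrunken, and the rebuilt means take them as unshrunken. A Benjamini-Hochberg adjustment computed over the 6429 genes differed from the deposited adjusted p-values by at most 3.76e-07. The labels list 3 libraries per group and do not say whether they came from separate animals, so p-values measure the spread between these libraries. The signs were checked through the difference between the squared SEs of the 2 tables. This difference was fitted on the inverse rebuilt means of labelled-DKO villus and crypt. The fit took up 90.1% of the sum of squares with both signs as the tables are named, and 51.6% with the villus-crypt sign reversed. It took up 2.22e-14% with the genotype sign reversed and 1.54% with both reversed.

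The labelled-DKO villus to crypt test was computed with Python 3.11.15, numpy 2.4.6, scipy 1.17.1 and pandas 2.3.3, and figures were drawn with matplotlib 3.10.9. Tested on simulated data of 6429 genes with 200 changed by a log2 fold change of 1, it recovered 91.5% and called 0 unchanged genes. The simulation gave the test the true spread of each gene, and its SE counts the shared WT villus spread in both comparisons. The 0 therefore follows largely from the construction and gives no error rate for the real data. Members and lists were chosen with earlier results of these data known. Named in full were the 12 called members with the largest change in each direction of each comparison and the 1 measured member of a family. From each further list, the 3 largest called changes in each direction between WT and labelled-DKO villus were given. The largest villus-crypt changes of these lists were not all given. Others of known role were chosen after their values were seen. Alternatives were centring, genes without overlapping windows, a mean signal of 100 or more, an adjusted p under 0.01, a log2 fold change beyond 1, a test against changes up to 0.5 and a smaller SE.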

Additional observations from a re-analysis of the deposited data

How the results depend on the processing

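Neither a called value of a member named in full nor a median over all members changed sign under the alternatives run, but centring turned the median of the conjugation genes for WT over labelled-DKO villus from -0.04 to 0.04. Requiring a log2 fold change beyond 1 left 7 members for WT villus against crypt, 19 for WT against labelled-DKO villus and 12 for labelled-DKO villus against crypt, and a null that allowed changes of up to 0.5 left 8, 20 and 5, against 25, 44 and 25 in the main tests; both raise the size a change must have. An adjusted p under 0.01 left 21, 35 and 19. The median of WT over labelled-DKO villus was 0.32 over all members, 0.49 over the 45 with a mean signal of at least 100, 0.53 over the 51 whose windows overlap no other gene, and 0.52 without the 8 nested Ugt1a genes, an alternative chosen after seeing the data. The smaller SE, the larger of the 2 deposited ones, called 33 members for labelled-DKO villus against crypt. Among the alternatives, the share of all genes called was counted for the limit of 1 alone. Counts under the others therefore stand without a background. Over the 33 members named in full, the 3 comparisons and the alternatives, 498 values stayed on the same side of the threshold with the same sign, 94 lost the call and 5 gained one. No paired analysis was possible because the count columns carry no names that match a library. For the same reason leaving out each replicate, DESeq2 against edgeR and other normalizations were not run, and what depth limits is known through the SEs alone.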

Other observations

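Among 13 measured genes of a list of 22 other xenobiotic or aldehyde enzymes, the authors' deposited tables had 4 higher in villus and 3 in crypt, beside 18.6% and 18.8% of all genes. Between genotypes 7 were higher in WT villus and 2 in labelled-DKO villus, beside 22.4% and 29.5% of all genes. Adh6a, an alcohol dehydrogenase gene, had a rebuilt signal of 513 in WT villus, 264 in crypt and 78.8 in labelled-DKO villus, with 2.70 ± 0.14 (DESeq2 adjusted p 6.37e-79) for WT over labelled-DKO villus in the authors' deposited table. Cda, which encodes cytidine deaminase, and Xdh, which encodes the purine-oxidising xanthine dehydrogenase, had 2.35 ± 0.18 and 1.87 ± 0.18 there. The aldehyde dehydrogenase genes Aldh3a2, for fatty aldehydes, and Aldh9a1 had -0.89 ± 0.19 (adjusted p 1.46e-05) and -0.64 ± 0.22 (adjusted p 0.0109), higher in labelled-DKO villus. Against crypt, 8 of the 13 were lower and 2 higher in labelled-DKO villus, beside 7.19% and 6.41% of all genes.

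Of 16 listed targets of NRF2 outside these families 10 were measured. By the authors' deposited tables, 5 were higher in villus and 1 in crypt, beside 18.6% and 18.8% of all genes. Between genotypes 6 were higher in WT villus and 2 in labelled-DKO villus, beside 22.4% and 29.5% of all genes. The ferritin heavy chain gene Fth1 had 1.65 ± 0.15, the sulfiredoxin gene Srxn1 1.32 ± 0.15 and the ferritin light chain gene Ftl1 0.83 ± 0.18 for WT over labelled-DKO villus. Taldo1 and Tkt, of the pentose phosphate pathway, had -0.53 ± 0.14 and -0.51 ± 0.15 there.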
